A study of Mus musculus with 4 samples.

Results

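Transglutaminases and peptidylarginine deiminases were examined in embryonic mouse epidermis carrying a stabilised beta-catenin, against that of control littermates. The members were taken by name: the transglutaminase genes Tgm1, Tgm2, Tgm3 and Tgm5 and the deiminase genes Padi1, Padi2, Padi3 and Padi4. All probe sets annotated to exactly 1 of these 8 genes were used, which gave 14 of 45037 probe sets on the array and 8 of 18193 genes it names. Of the 14, 6 were read for Tgm2, 2 for Tgm3 and 1 for each other member, and no probe set naming several genes included a member.

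Transglutaminases are calcium-dependent enzymes that join glutamine to lysine side chains between proteins. In the epidermis they build the cornified envelope, the crosslinked protein shell that replaces the plasma membrane of the outermost cells, and in the hair follicle they harden the inner root sheath and medulla. Peptidylarginine deiminases, also calcium-dependent, turn arginine into citrulline, which lowers the positive charge of keratins, filaggrin and trichohyalin and changes how these proteins assemble and are broken down. Trichohyalin, the matrix protein of the inner root sheath and medulla, is a substrate of both enzyme families. In humans, variants of TGM3, PADI3 and the trichohyalin gene cause uncombable hair syndrome, and loss of TGM1 causes lamellar ichthyosis.

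Each of the 4 arrays held RNA from the dorsal epidermis of a separate embryo at E15.5, with 2 control littermates and 2 mutants carrying KRT14-Cre and the Ctnnb1(Ex3)fl/+ allele. Cre expressed from the keratin 14 promoter, which is active in basal keratinocytes, removes exon 3 of 1 copy of Ctnnb1 and leaves a beta-catenin that escapes degradation. The genotype of the controls is given only as control littermate. Skin was parted into epidermis and dermis with dispase, so the RNA is of the whole epidermal sheet with the hair germs it held. Values are deposited signal intensities on a linear scale, already scaled alike on all arrays. Tests were limited to probe sets bright on 2 or more arrays, that is, over the 40th percentile of all signals on that array, which ran from 14.4 to 16.1 over the 4 arrays. Signals of different probe sets are not comparable with each other, so arrays are compared within a probe set. The exception is the summed signal of a marker list, which weighs its brightest probe sets most and serves only to compare arrays.

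Signal of Ctnnb1 itself was 5311 and 4940 in the controls and 6907 and 7323 in the mutants, on a probe set that does not check the loss of exon 3. Axin2, a target of beta-catenin signalling, read 522 and 555 in the controls and 2540 and 2803 in the mutants. The 6 epidermal markers (Krt5, Krt14, Krt1, Krt10, Trp63 and Cdh1) were all tested, and their summed signal was 35131 and 35929 in the controls and 15158 and 16697 in the mutants, a fall made mostly of Krt1 and Krt10. Of the 6, 4 were lower in the mutants, where 24.5% of all genes tested were called lower. Krt5 (a log2 change of -0.15) and Trp63 (-0.04) did not pass. Krt14, 1 of the 4, changed by only -0.35. It did not pass with dim probe sets kept in the fit (limma adjusted p = 0.0672). Without the intensity trend 3 of the 6 were lower. None of 7 neutrophil markers, 4 of 10 macrophage markers, 2 of 8 endothelial markers and 3 of 8 skeletal muscle markers were bright enough to test, and none of those tested passed. Dermal fibroblast markers were tested for 7 of 9 genes, with 1 higher and 2 lower. The summed signal, 3443 and 4222 in controls and 3671 and 4129 in mutants, was mostly that of Dcn. On its brightest probe set Dcn rose slightly (2908 and 2900 against 3444 and 3704). On another probe set Dcn did not pass, at a log2 change of 0.73 ± 0.39 (limma adjusted p = 0.181). The collagen genes Col1a2 (log2 change -1.88) and Col5a1 (-1.17) fell. Control 2 stood apart from control 1 in Col1a2 itself (376 against 118), in Col3a1 (381 against 22.9) and in Col1a1 (107 against 1.84). Melanocyte markers were higher for 6 of 6 genes, where 20.6% of all genes tested were called higher. Their summed signal was 1307 and 1318 in controls against 4659 and 5799 in mutants. Tyrp1, 1 of the 6, read 12.2 and 4.91 in controls and was bright enough to test only through the mutants. The part of these markers in the results on the enzymes was not tested.

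Among the enzymes, Tgm1 fell in the mutant epidermis, Padi3 and Padi1 rose, and Tgm3 rose slightly on 1 of its 2 probe sets. Tgm2 had 1 tested probe set, which did not pass. Tgm5, Padi2 and Padi4 were too dim to be tested. In all, 6 of the 14 probe sets, from 5 genes, were tested, with 3 called higher, 1 called lower and 2 not passing. For comparison, 39.4% of all 28434 tested probe sets were called, 18.9% higher and 20.5% lower, at a limma adjusted p under 0.05. The share of members called therefore stands against a background in which changes were common, and it is read here gene by gene.

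**Figure D1:**
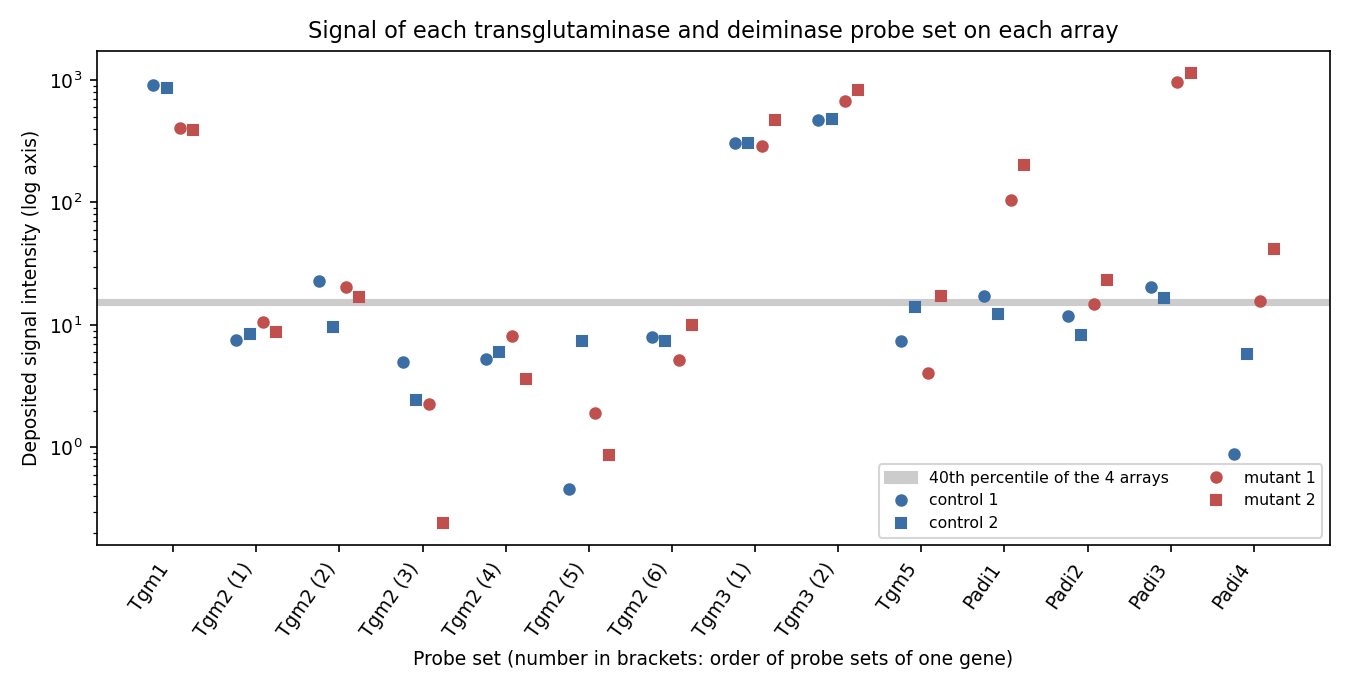
Deposited signal intensity (log axis) of the 14 member probe sets on each of the 4 arrays, with controls in blue and mutants in red and the grey band spanning the arrays' 40th percentiles. Padi3 and Padi1 sit near the band in controls and far above it in mutants, Tgm1 drops from about 886 to 397 in the mean, and 5 of the 6 Tgm2 probe sets lie below the band on every array.

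Tgm1 encodes the membrane-anchored transglutaminase of the upper epidermis, which crosslinks envelope proteins and attaches lipids to them. Its signal was 904 and 868 in the 2 controls and 404 and 390 in the 2 mutants. Both mutants lay below both controls, and arrays within a group differed by 1.04-fold at most. The mean went from 886 ± 25.4 to 397 ± 9.96 (SD, n = 2 per group), a fall of 2.23-fold, or a log2 change of -1.16 ± 0.10 (SE; limma adjusted p = 6.87e-05). Leaving out each array in turn gave values between -1.19 and -1.13. A larger fall was fitted for 8.52% of all tested probe sets. In whole epidermis, fewer cells expressing a gene and less of its RNA per cell cannot be told apart.

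Tgm3 encodes a cytosolic transglutaminase of the epidermis and hair follicle that is made as a precursor and activated by proteolysis. It was read by 2 probe sets. On 1440150_at, marked Tgm3 (2) in the figures, controls gave signals of 475 and 479 and mutants 672 and 824. Both mutants thus exceeded both controls. This was a rise of 0.64 ± 0.12 on the log2 scale, or 1.56-fold (limma adjusted p = 0.00431), and it no longer passed when the fit took no account of signal brightness (adjusted p = 0.0511). On 1421355_at, marked Tgm3 (1) in the figures, controls gave signals of 304 and 306 and mutants 289 and 471. Here the groups overlapped, because mutant 1 lay below both controls and mutant 2 above them. The log2 change was 0.27 ± 0.21 (95% interval -0.21 to 0.76; adjusted p = 0.335) and did not pass. Without mutant 1 it was 0.63 (adjusted p = 0.00939) and without mutant 2 it was -0.08 (adjusted p = 0.707), so the value of this probe set rested on single arrays. The 2 mutants differed by 1.63-fold on it, a larger gap than that of all but 9.47% of tested probe sets.

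Tgm2 encodes tissue transglutaminase, which is found in many cell types and also acts outside cells. Of its 6 probe sets 5 lay at or below the 40th percentile on all 4 arrays, with signals between 0.242 and 10.5. The tested probe set (1426004_a_at) read 22.7 and 9.64 in controls and 20.2 and 17.0 in mutants. Its controls spanned both mutants and differed by 2.36-fold, more than in all but 3.16% of tested probe sets. The log2 change was 0.33 ± 0.52 (95% interval -0.89 to 1.55; limma adjusted p = 0.657), an interval that allows either direction. Of the 6, 4 are of the type whose probes can also match other transcripts, as their names show.

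Tgm5 encodes a transglutaminase of the upper epidermis whose loss in humans causes acral peeling skin. Its probe set read 7.45 and 14.04 in controls and 4.05 and 17.2 in mutants, with only mutant 2 above its array's 40th percentile. The groups overlapped, and no level above background could be given for 3 of the 4 arrays. It did not pass with dim probe sets kept in the fit (adjusted p = 0.858).

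Padi3 encodes the deiminase of the inner root sheath and hair medulla, whose substrates include trichohyalin and the hair cuticle protein S100a3. The 2 controls gave signals of 20.4 and 16.6 and the 2 mutants 965 and 1135. The mean rose from 18.5 ± 2.71 to 1050 ± 120 (SD, n = 2 per group). On the log2 scale the change was 5.83 ± 0.17 (SE), or 56.8-fold, with a limma adjusted p of 4.64e-07, and 163 of the 28434 tested probe sets had a larger rise. Both controls lay only a little above their 40th percentiles, so the size of the fold is uncertain. With 16 added to every signal before log2 it was 4.95.

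Padi1 encodes the deiminase of the upper epidermal layers, where it acts on keratin 1 and filaggrin. It read 17.1 and 12.3 in controls, of which only control 1 exceeded its array's 40th percentile, and 104 and 203 in mutants. Both mutants were far above both controls, though the mutants themselves differed by 1.95-fold, more than in all but 5.29% of tested probe sets. The rise was 3.32 ± 0.35 on the log2 scale, or 10.02-fold (limma adjusted p = 0.000250), and 2.41 with 16 added to every signal. With control 2 below its array's 40th percentile, the size of this fold is uncertain. Leaving out each array in turn gave log2 changes between 2.84 and 3.81 for Padi1 and between 5.68 and 5.98 for Padi3.

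**Figure D2:**
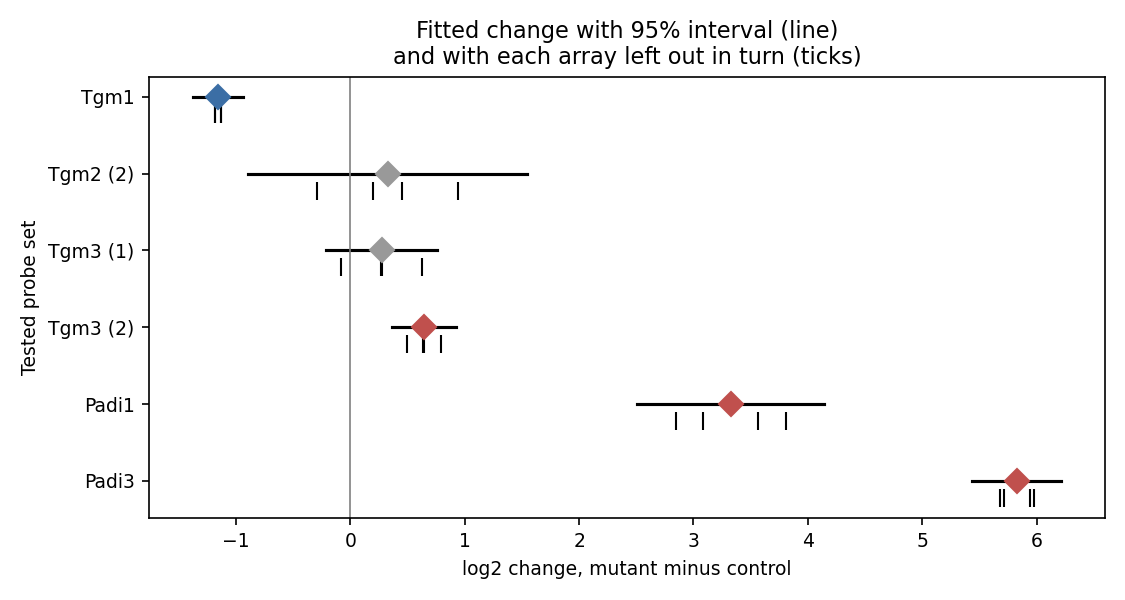
Log2 change, mutant minus control, of the 6 tested member probe sets, with the 95% interval as a line and the values with each array left out as ticks. Tgm3 (1) is 1421355_at, Tgm3 (2) is 1440150_at and Tgm2 (2) is 1426004_a_at; grey diamonds did not pass. Tgm1 lies at -1.16 and Padi3 at 5.83, with ticks close to the fitted value, while the ticks of Tgm2 and of Tgm3 (1) fall on both sides of 0.

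Padi4, best known as the deiminase of neutrophils that modifies histones, read 0.891 and 5.75 in controls and 15.8 and 41.7 in mutants. Both mutants exceeded both controls, but only mutant 2 lay above its array's 40th percentile, so the probe set was not tested. With dim probe sets kept in the fit, its limma adjusted p was 0.0472, where 22.5% of 45037 probe sets were called. Both controls were below their 40th percentiles, the controls alone differed by 6.45-fold and the mutants by 2.64-fold, and no size of change is given. Markers of neutrophils were all too dim to test, with summed signals of 33.5 to 40.8 in controls and 32.7 to 43.4 in mutants. Padi2, a broadly expressed deiminase first studied in muscle and brain, read 11.8 and 8.24 in controls and 14.8 and 23.2 in mutants. Its groups did not overlap, but only mutant 2 exceeded its array's 40th percentile. It did not pass with dim probe sets kept (adjusted p = 0.298).

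**Figure D3:**
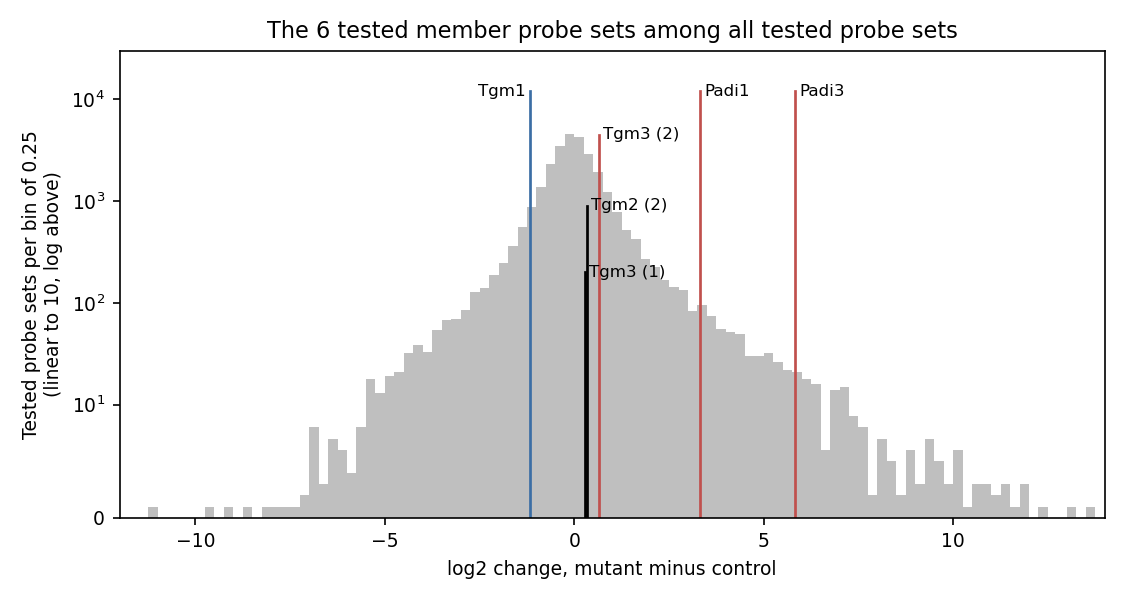
Number of tested probe sets per bin of log2 change, mutant minus control, with vertical lines at the 6 tested member probe sets (the heights of the lines carry no value). Padi3 at 5.83 and Padi1 at 3.32 stand in the right tail, Tgm1 at -1.16 on the left shoulder, and the Tgm2 and Tgm3 lines near the centre.

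The 5 deiminase genes of the mouse form a block on chromosome 4, in the order Padi6, Padi4, Padi3, Padi1 and Padi2 with no other protein-coding gene between them in the RefSeq annotation of GRCm38.p6. The 2 genes that rose, Padi3 and Padi1, are neighbours at its centre. The 3 protein-coding genes on either side, a choice made after the values were seen, were tested for 5 of 6. Of these Atp13a2 rose by 0.91 ± 0.12 on the log2 scale, Mfap2 by 0.49 ± 0.13 and Rcc2 by 0.31 ± 0.10. Sdhb had -0.03 ± 0.10, and Arhgef10l with 0.67 ± 0.28 did not pass (limma adjusted p = 0.0901). The flanking genes thus ranged from -0.03 to 0.91, below the changes of Padi1 and Padi3. Tgm3 has Tgm6 as a near neighbour on chromosome 2, where Tgm2 and Tgm5 also lie, and Tgm1 lies on chromosome 14. Around Tgm3 and Tgm6, 2 of 4 tested flanking genes fell, Sirpa with a log2 change of -2.20 and Stk35 with -0.71, and 0 rose. Around Tgm2 both tested flanking genes fell, and around Tgm5, of 6 tested, 3 rose and 1 fell. None of the 5 tested genes flanking Tgm1 passed, with log2 changes between -0.29 and 0.19. Over all genes tested 45.1% were called.

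**Figure D4:**
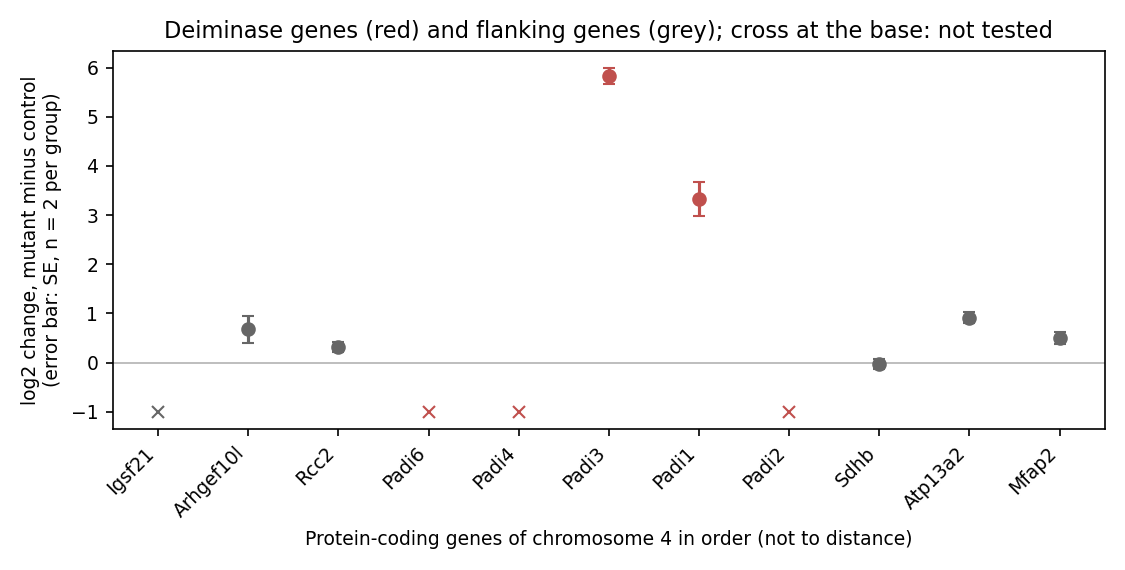
Log2 change, mutant minus control, of the deiminase genes (red) and their flanking genes (grey) on chromosome 4, in gene order and not to distance. Error bars are limma's SE, which rests on a spread pooled over probe sets, from 2 arrays per group. Crosses at the base mark genes that were not tested. Padi3 and Padi1 stand at 5.83 and 3.32, and no flanking gene exceeds 0.91.

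The sequences before the starts of Padi3 and Padi1 are shown because these neighbouring genes rose together. They are the 250 bases before the annotated start, 5′ to 3′ on the strand of the gene, from RefSeq on GRCm38.p6, at chr4:140810649-140810898 and chr4:140845779-140846028, both on the minus strand. Capitals mark matches on either strand to 6 short motifs: CTTTGA (a core of the sites of TCF/LEF, the DNA-binding partners of beta-catenin), CTTTGT (the other TCF/LEF core), TGANTCA (the AP-1 site), CCAAT (the CCAAT box), GGGCGG (the GC box) and TATAAA (the TATA box).
Padi3: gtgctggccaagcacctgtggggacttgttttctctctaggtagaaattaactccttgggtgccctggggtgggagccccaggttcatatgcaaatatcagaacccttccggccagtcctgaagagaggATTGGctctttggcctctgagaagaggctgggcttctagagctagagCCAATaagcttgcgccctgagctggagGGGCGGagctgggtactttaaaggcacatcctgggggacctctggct
Padi1: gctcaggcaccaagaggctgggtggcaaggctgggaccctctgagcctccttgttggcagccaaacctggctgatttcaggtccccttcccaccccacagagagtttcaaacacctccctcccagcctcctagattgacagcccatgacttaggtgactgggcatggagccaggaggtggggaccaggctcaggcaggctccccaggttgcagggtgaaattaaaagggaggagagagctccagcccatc
The window of Padi3 held CCAAT at 121 and 74 bases before the start and GGGCGG at 47 bases before it, and that of Padi1 held none of the 6. The marked matches did not overlap. A TCF/LEF core stood in neither, in 2 of the 8 windows found for 7 of the members (1 of the 2 of Tgm1, and that of Tgm3), and in 27.6% of all 32851 windows. CCAAT stood in 5 of the 8 windows and in 33.8% of all, and GGGCGG in 3 and in 32.7%. A match is a description of letters, and its absence from these 250 bases says nothing of binding elsewhere.

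Other genes of the 2 families were mostly dim. Tgm6, a transglutaminase known from neurons in humans, read 3.94 and 8.11 in controls and 72.7 and 74.4 in mutants. It passed the filter on dim probe sets only through the mutants. Both controls were below their 40th percentiles, and Tgm6 was at least 5.07-fold higher in the mutants. With dim probe sets kept in the fit, its limma adjusted p was 0.00116. Tgm4, Padi6, Epb42 and F13a1 were not tested. Tgm4, a transglutaminase of the prostate, read 11.03 and 8.54 in controls and 4.12 and 1.75 in mutants, and Padi6, the deiminase of oocytes, 10.96 and 12.3 against 2.83 and 3.92. Epb42, the inactive family member of red cells, lay between 0.805 and 6.76, and F13a1, the clotting factor XIII subunit, between 3.97 and 19.3 over the 4 arrays. Tgm7 was not analysed here.

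Known substrates of the enzymes moved in both directions. Proteins crosslinked by transglutaminases were listed for 38 symbols, of which 30 had a probe set and 21 were tested. Of these, 4 rose, 13 fell and 4 did not pass, with a median log2 change of -0.71, against 45.1% called, 20.6% rising and 24.5% falling and a median of -0.06 over all 12469 genes tested. Krt1 and Krt10, the keratins of the suprabasal layers, had log2 changes of -3.98 ± 0.12 and -3.57 ± 0.11, both past the test. Loricrin (Lor), the main envelope protein, fell by 4.08 ± 0.13. Involucrin (Ivl), an early envelope protein, went from 177 and 237 in controls to 4.23 and 23.3 in mutants, of which only mutant 2 was above its 40th percentile. The envelope scaffold proteins Evpl and Ppl had log2 changes of -1.34 and -1.12. Tchh, trichohyalin, rose by 5.67 ± 0.17, from 53.2 and 73.0 to 3564 and 2829. Sprr1a, a small proline-rich envelope protein, rose by 0.72 on the log2 scale. Sprr2h, of the same family, was also called higher, but its controls read 19.4 and 1.93, with control 2 below its 40th percentile, so no fold is given. Sprr1b and Sprr3, of this family too, fell, with log2 changes of -0.56 ± 0.11 and -1.63 ± 0.31. Rptn was called higher by at least 1.61-fold, and it passed the filter on dim probe sets only through the mutants. Without the intensity trend, or without mutant 2, 2 rather than 4 rose.

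Substrates of deimination also moved in both directions, but this list is not independent of the one above. Of its tested genes, Krt1, Krt10, Hrnr and Tchh are in both lists, and only S100a3 is new. Of 5 tested genes, 3 fell and 2 rose, where 45.1% of all genes tested were called, and the median log2 change was -3.57. Those that fell were Krt1, Krt10 and hornerin (Hrnr), a filaggrin-like protein of the granular layer, which went from 3429 and 4812 in controls to 33.1 and 62.3 in mutants. Those that rose were trichohyalin and S100a3, a calcium-binding protein of the hair cuticle. S100a3 read 17.9 and 15.02 in controls and 4623 and 5103 in mutants, a rise of 8.21 ± 0.13 on the log2 scale from a level near the 40th percentile. Filaggrin (Flg) was too dim to test, with signals between 0.611 and 4.02. Whether these lists move together with the enzymes was not tested.

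Genes that act on the enzymes or with them were tested as well. Among 7 proteases and inhibitors, 2 rose, 2 fell and 3 did not pass, against 45.1% of all genes called. Without the intensity trend 1 rose. Cst6, cystatin M/E, an inhibitor in the protease pathway that controls Tgm3 processing in mice, rose by 1.59 ± 0.24 on the log2 scale, and Ctsl, the cathepsin that cleaves Tgm3, rose by 0.92 ± 0.18. Legumain (Lgmn), the protease that Cst6 inhibits, had 0.26 ± 0.16 and did not pass. Capn1 and Casp14, proteases that take part in the breakdown of deiminated filaggrin, fell, with log2 changes of -2.29 ± 0.13 and -5.61 ± 0.17. On another probe set Casp14 did not pass, at -0.32 ± 0.24 (limma adjusted p = 0.316). Blmh, a further protease of this list, had -0.20 ± 0.09 and did not pass (limma adjusted p = 0.103). The lipid envelope list of 9 genes includes some whose products make or move the lipids that Tgm1 attaches. Of these 9 genes, 8 fell, 0 rose and 1 did not pass, with a median log2 change of -1.83. Among all genes tested 24.5% fell, and the median was -0.06. Alox12b, the lipoxygenase that oxidises the lipids attached by Tgm1, fell by 4.92 ± 0.19. The log2 changes of Nipal4, Sdr9c7 and Sult2b1 were -2.05 ± 0.13, -1.91 ± 0.16 and -1.83 ± 0.11. Cers3, which makes ceramides of very long chains, had -0.05 ± 0.10.

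**Figure D5:**
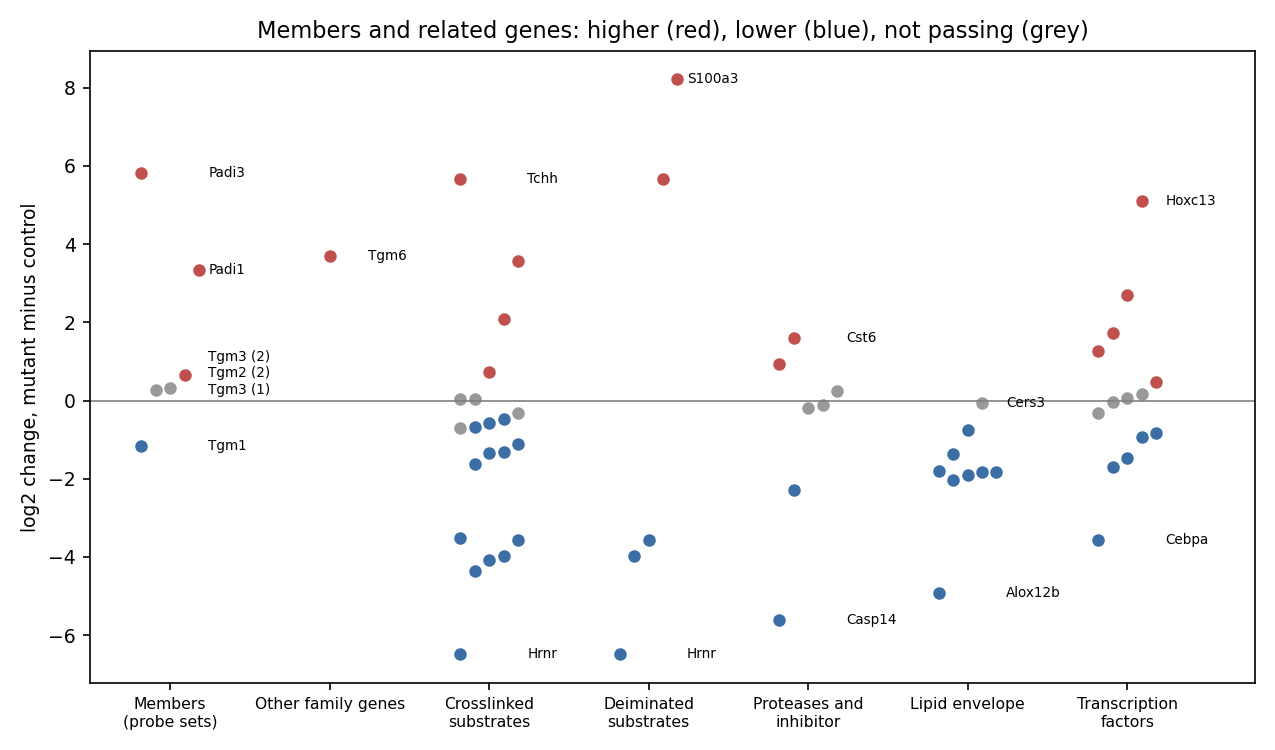
Log2 change, mutant minus control, of the 6 tested member probe sets and of the tested genes of each related list, 1 point each, coloured by call (red higher, blue lower, grey not passing). Named points are the members and each list's lowest and highest gene. The lipid envelope genes lie at or below -0.05, while the substrates reach from -6.48 (Hrnr) to 8.21 (S100a3).

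The genes whose pattern over the 4 arrays was most like that of Tgm1, Tgm3 and Padi3 were found by the distance between log2 signals centred on each probe set's mean. Nearest to Tgm1 were Exosc7, at a distance of 0.0257, and Iqgap1, at 0.0347, with log2 changes of -1.18 and -1.13. Nearest to Tgm3 (1440150_at) were Pomt2, at 0.0284, and Lrrc8a, at 0.0340, which changed by 0.63 (limma adjusted p = 0.0749, not passing) and 0.64. For Padi3 the nearest were farther away, Fam20a at 0.183 and Tlcd4 at 0.217. Both passed the filter on dim probe sets only through the mutants, with all controls below the 40th percentile, and were at least 4.13-fold and 18.5-fold higher there, respectively. Over 4 arrays such likeness is a description only.

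The authors' deposited table of 6296 probe sets, made from another expression measure and kept where probe sets differed at least 2-fold and were called Present on at least 2 arrays, held 4 of the 14 member probe sets. In the authors' deposited table Tgm1 was 2.29-fold lower in mutants, close to the 2.23-fold above. Padi3 was 329-fold and Padi1 28.3-fold higher in the authors' deposited table, against 56.8-fold and 10.02-fold, both of uncertain size, from the signals used here. Its ratios to the control mean were 302 and 338 in the mutants for Padi3 and 15.9 and 50.4 for Padi1, so the authors' deposited table also placed Padi1 higher in mutant 2. Padi4 was 2.76-fold higher in the authors' deposited table, with mutant ratios of 1.126 and 6.77, so that mutant 1 stood near the controls. Tgm6 was 12.99-fold higher in the authors' deposited table.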

How the data were processed

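Transcript levels were measured on Affymetrix MOE430 2.0 arrays, 1 colour, in 2 control and 2 mutant epidermis samples grouped by their titles. Deposited signal intensities were made with GCOS and MAS5, per the submitters' processing notes, and after trimming 2% of values from either end all 4 arrays averaged 150, so no further normalization was applied. The authors' deposited table holds ratios to the control mean from GCRMA expression, per the file headers, and was used only as named. The 64 array controls among 45101 probe sets were dropped. Genes came from the platform annotation, with symbols updated to GRCm38.p6 (99.4% of probe sets naming 1 gene).

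Log2 signals were fitted with limma 3.58.1 in R 4.3.3 (lmFit, eBayes with intensity trend), two-sided, as mutant minus control, with Benjamini-Hochberg adjustment over all 28434 tested probe sets and a threshold of 0.05. The other 16603 probe sets were dim. An exact permutation test of 2 against 2 cannot give a p below 0.333, so calls rest on limma's pooled spread, and the number of arrays limits the precision. For lists, each gene was read from its brightest tested probe set, by mean log2 signal. A bound uses the 40th percentile for arrays below it. Genes named were all members, up to 4 per list with the largest moderated t, the other family genes and the 2 nearest in pattern to the 3 brightest members. Dcn, Col1a1, Col1a2, Col3a1, Col5a1, Tyrp1, Ivl, Evpl, Ppl, Hrnr, Sprr1a, Sprr1b, Sprr2h, Sprr3, Rptn, Flg, Lgmn, Blmh, Cers3 and, in the closing section, Grhl3, Klf4, Trp63 and Maf were named after their values were seen. The members and lists were chosen with earlier results of these data known. The fit was tested on simulated data. There was 1 scan day, 1 scanner and 1 fluidics station, with a module for each of the 4 arrays, so no batch could be fitted.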

Additional observations from a re-analysis of the deposited data

How the results depend on the processing

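The fit was repeated under 11 alternatives: without the filter on dim probe sets, with a stricter one (60th percentile), with median centring, with quantile normalization, with 16 added to the signal, without the intensity trend, without each of the 4 arrays, and with the replicate number as a block. Tgm1, Padi1 and Padi3 kept direction and call in all 11, with log2 changes from -1.27 to -1.13, 2.41 to 3.81 and 4.95 to 5.98, and highest adjusted p of 0.00892, 0.0121 and 0.00198. Tgm3 (1440150_at) ranged from 0.49 to 0.79 and lost its call only without the intensity trend. Leaving out single arrays moved Tgm3 (1421355_at) between -0.0791 and 0.6287 and Tgm2 (1426004_a_at) between -0.29 and 0.94. The stricter filter left Tgm2 untested. With an array left out, 3 to 4 member probe sets were higher and 1 to 1 lower, and 8280 to 9594 of all tested probe sets were called, against 11210. Crosslinked substrates that rose numbered 2 without the intensity trend and 2 to 4 with an array left out, against 4. Proteases and inhibitors that rose numbered 1 without the intensity trend, against 2. Median centring put the median change of all tested probe sets at -0.14 instead of -0.03, with 4464 higher and 7059 lower instead of 5386 and 5824. Without control 1 the split was 4375 and 3905, and without control 2 it was 4493 and 4008. With an array left out, the dermal markers numbered 0 to 1 higher and 1 to 3 lower. With the replicate block 11525 probe sets were called, and 3 member probe sets were higher and 1 lower. Replicate 1 of each group deviated from its group mean with a correlation of 0.015 across probe sets, so no shared deviation by number was seen. The labels do not say whether a number marks a litter, and this correlation cannot decide it. The causes of these shifts were not tested. Probe sets near the 40th percentile limit the size of every fold against the controls of Padi1, Padi3 and S100a3.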

Other observations

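Transcription factors that act in keratinocytes or hair, some of them known regulators of these enzymes, moved both ways. Of 14 tested, 5 rose, 5 fell and 4 did not pass, with a median log2 change of 0.005, where 20.6% of all genes tested rose and 24.5% fell. Cebpa, a factor of differentiating keratinocytes, fell by 3.56 ± 0.10, from 1976 and 1982 in controls to 163 and 173 in mutants. Gata3 fell by 1.69 ± 0.13, and Grhl3, a factor needed in mice for Tgm1 expression and barrier formation, fell by 1.47 ± 0.11. Hoxc13 and Foxn1, which act in hair keratin expression, rose by 5.11 ± 0.23 and 2.70 ± 0.12. Maf rose by 1.73 ± 0.28. Klf4 (0.16 ± 0.08) and Trp63 (-0.04 ± 0.10) did not pass. All values are log2 changes with limma's SE, which rests on a spread pooled over probe sets, from 2 arrays per group. No link between these factors and the enzymes was tested.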
